A study of Homo sapiens with 24 samples.

Results

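COLO-357 is an established human pancreatic ductal adenocarcinoma cell line, and the data described here follow its transcripts 24 h after exposure to PD-0332991. PD-0332991 is palbociclib, a small molecule given here at 5 µM that inhibits CDK4 and CDK6, the kinases activated by D-type cyclins. Of the 24 bead arrays of the series, 6 make up this comparison, 3 from drug-treated and 3 from vehicle-treated cultures, chosen by the array names that state line, treatment, time and replicate. The other 18 arrays were COLO-357 at 72 h and AsPC-1, another pancreatic adenocarcinoma line, at 24 h and 72 h, again with vehicle or 5 µM drug and 3 arrays a group. No array of those groups is shared with the 6. Per the labels the 3 arrays of a group are biological replicates of 1 line. The p-values and SEs rest on the spread between such replicates, pooled over all 8 groups of both lines. COLO-357 was kept in DMEM and AsPC-1 in an RPMI medium, each with 5% serum, and the effects of line and of medium cannot be told apart. The question addressed was which transcripts respond early when the kinases that start the cell cycle are inhibited.

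Both kinases phosphorylate the retinoblastoma protein RB, which otherwise holds E2F transcription factors in check. Released E2F switches on genes of DNA synthesis, and a later wave driven by the MuvB complex with B-MYB and FOXM1 switches on genes of mitosis. When RB is kept unphosphorylated, E2F sites and the CHR elements of mitotic promoters are occupied by repressive complexes, and cells stop in G1. Pancreatic ductal adenocarcinomas often lose CDKN2A, the gene of the natural CDK4/6 inhibitor p16, as background to the use of this drug class.

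Between 18381 and 19495 probes were detected per array (detection p under 0.05), and the median raw signal was 109.9 to 133. The first principal component of the 6 arrays held 54% of the variance and separated drug from vehicle, and the second held 20.7% and set replicate 2 of both groups apart from the other 4 arrays. The median SD between replicates was 0.15 log2 with vehicle and 0.155 with drug. Among the other groups that share the pooled spread, it was as high as 0.248, in AsPC-1 vehicle at 24 h. Of 11 ductal epithelium markers only CLDN7 has a name in the files, and of the acinar, endocrine, fibroblast or stellate, endothelial and immune markers 0 do, so the labelled cell type could not be checked further. The files name a gene only for probes in the authors' 6 lists of changed genes, which give 605 symbols over 685 tested probes. The arrays measured bulk RNA, in which fewer cells of a kind and less RNA per cell cannot be told apart.

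PD-0332991 changed many transcripts within 24 h, and the largest changes were falls of mitotic genes. Of 24750 tested probes 2796 (11.3%) passed an adjusted p under 0.05, 1366 higher (5.52%) and 1430 lower (5.78%). A 2-fold change or more was reached by 554 of them (2.24%), with 174 rises (0.703%) and 380 falls (1.54%). Over all tested probes the median change was 0.00846 log2. Computed from the authors' scaled signals, the split was 1082 rises and 1946 falls among 3028 probes, and 27 rises and 236 falls at 2-fold. Without vehicle replicate 1 the count was 1840, and without both replicate 2 arrays it was 1605. The 3 drug values lay all above or all below the 3 vehicle values for 7704 probes (31.1%), in 15.9% all above, and 2730 of the called probes were among them. Only 437 of the called probes carry a name, and 2359 do not.

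Of the 605 named genes, 283 fell and 101 rose. Each gene stands for its brightest named probe over the 24 arrays, and these counts were 252 and 72 without both replicate 2 arrays. The authors' deposited list for this same comparison named 256 of the genes, so their directions here are not independent evidence. The other 349 were named only because they changed in the other line, at 72 h or in cyclin knockdowns, and 60 of them (17.2%) fell while 70 (20.1%) rose, against 5.78% and 5.52% of all probes. Leaving out 1 array at a time, 43 to 49 fell and 40 to 57 rose, and without both replicate 2 arrays 33 fell and 41 rose. Their choice rested in part on the same line at 72 h. Where 77 genes had several named probes, these had the same sign in 74 genes, and 0 genes had probes called in opposite directions.

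**Figure D1:**
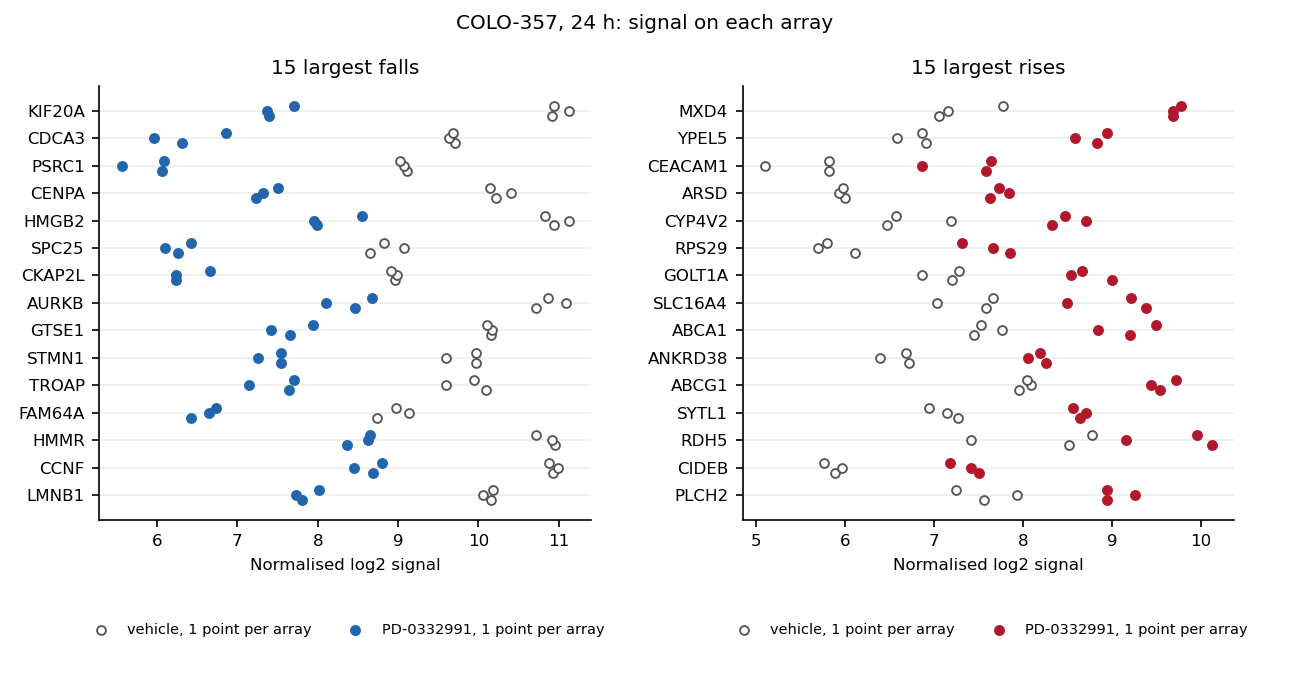
Normalised log2 signal (x axis) of the 15 named genes with the largest fall (left, blue) and the largest rise (right, red) after 24 h of PD-0332991 in COLO-357, with 1 point per array, open for vehicle and filled for drug. In each gene the 3 drug values lie apart from the 3 vehicle values, which was part of the rule that chose them. The largest fall is that of KIF20A, by 3.50 log2, and the largest rise that of MXD4, by 2.38 log2.

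Genes of mitosis carried the largest falls. KIF20A encodes a kinesin that carries regulators to the spindle midzone for cytokinesis, and CDCA3 encodes a protein that promotes entry into mitosis. Their promoters are shown because these were the genes with the largest falls, and because such promoters are known to hold the CHR element (TTTGAA, or in its variant form TTTAAA) and CCAAT boxes that bring in the MuvB complex and NF-Y. The sequences are RefSeq's on GRCh38.p14, from 250 bases before to 50 after the gene's start. Capitals mark matches, on either strand, to the CHR letters or to CCAAT, which appears as ATTGG where it lies on the other strand. The KIF20A promoter lies at chr5:138178862-138179161 on the plus strand and the CDCA3 promoter at chr12:6851237-6851536 on the minus strand.
KIF20A: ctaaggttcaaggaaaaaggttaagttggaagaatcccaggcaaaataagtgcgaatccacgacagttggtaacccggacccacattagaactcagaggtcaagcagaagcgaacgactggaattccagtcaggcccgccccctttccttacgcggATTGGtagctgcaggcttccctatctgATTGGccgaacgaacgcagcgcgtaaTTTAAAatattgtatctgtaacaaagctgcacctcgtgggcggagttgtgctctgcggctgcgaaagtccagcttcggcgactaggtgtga
CDCA3: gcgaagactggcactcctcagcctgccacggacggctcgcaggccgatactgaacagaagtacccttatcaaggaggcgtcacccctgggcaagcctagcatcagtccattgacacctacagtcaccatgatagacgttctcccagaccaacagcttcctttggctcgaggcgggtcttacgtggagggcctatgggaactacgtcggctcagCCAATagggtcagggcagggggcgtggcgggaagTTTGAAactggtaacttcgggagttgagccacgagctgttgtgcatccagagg
KIF20A held TTTAAA at -41 and CCAAT on the other strand at -94 and -67, and CDCA3 held TTTGAA at -3 and CCAAT at -37, counted in bases from the start to the leftmost letter. None of these matches overlapped. Of all 27305 RefSeq promoters of this length, 24.3% held a CHR match and 35.7% a CCAAT match, so either alone is common. A match is a description of letters and not a test of binding.

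The KIF20A signal was 10.91, 11.12 and 10.94 log2 with vehicle and 7.40, 7.36 and 7.70 with drug. All 3 drug values lay more than 3 log2 below the lowest vehicle value. The fall was 3.50 ± 0.22 log2, or 11.35-fold (SE from the pooled spread, n = 3 and 3 arrays, adjusted p = 6.4e-10). CDCA3 was 9.70, 9.63 and 9.68 with vehicle and 6.31, 5.97 and 6.86 with drug, again without overlap, and fell 9.81-fold. PSRC1, which encodes a microtubule-binding protein of the spindle, went from 9.11, 9.08 and 9.02 to 6.06, 5.56 and 6.09. It fell by 3.17 ± 0.16 log2 (adjusted p = 9.1e-11), with vehicle arrays within 0.1 log2 of each other and drug arrays more spread (SD 0.298). The dimmer PSRC1 probe fell less, by 1.82 ± 0.14 log2 (adjusted p = 1.0e-08).

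The list of spindle motors and cytokinesis had 31 named genes, and 31 fell, by 1.93-fold to 11.35-fold with a median of -1.81 log2. Besides KIF20A and PSRC1, its largest changes were CKAP2L, a spindle protein, which fell by 2.58 ± 0.16 log2, and STMN1, the microtubule destabiliser stathmin, which fell by 2.40 ± 0.16 log2. TROAP, FAM64A and HMMR, also among the 15 largest falls of named genes, fell by 2.38, 2.34 and 2.31 log2. All 31 genes of the list had been named through the authors' list for this comparison. The mean over the list was 9.97, 10.03 and 9.95 log2 with vehicle and 8.02, 8.01 and 8.24 with drug, so that drug replicate 3 had the highest of the drug values. That order recurred in the other cell cycle lists named below, in which drug replicate 3 had the highest list mean of the 3 drug arrays.

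Mitotic kinases, cyclin B and anaphase control had 31 named genes, and 31 fell, with a median of -1.59 log2. AURKB, the kinase of the chromosomal passenger complex, was 10.72, 11.09 and 10.87 with vehicle and 8.46, 8.10 and 8.67 with drug, a fall of 2.48 ± 0.20 log2 (adjusted p = 1.5e-08). GTSE1, a microtubule-associated protein of G2 and mitosis, went from 10.15, 10.16 and 10.11 to 7.66, 7.42 and 7.94 and fell 5.53-fold. CCNF, cyclin F, the substrate receptor of a ubiquitin ligase, fell by 2.29 ± 0.13 log2 (adjusted p = 4.7e-10). The groups of each of these genes did not overlap, and drug replicate 2 held the lowest value in all 4 of the list's named examples, CDCA3 included.

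At the centromere and kinetochore, where chromosomes attach to the spindle, 19 of 19 named genes fell, with a median of -1.65 log2. CENPA, the histone H3 variant that marks the centromere, was 10.22, 10.41 and 10.14 with vehicle and 7.23, 7.31 and 7.50 with drug, a fall of 2.91 ± 0.23 log2. SPC25, a subunit of the NDC80 microtubule attachment complex, went from 8.66, 9.07 and 8.83 to 6.26, 6.10 and 6.42 (6.02-fold). HJURP, the chaperone that deposits CENPA, fell 4.73-fold, and CENPE, a kinetochore motor, fell 4.15-fold. Of chromatin and nuclear envelope genes of dividing cells, 18 of 19 fell. They were led by HMGB2, a DNA-bending chromatin protein (2.80 ± 0.20 log2), LMNB1, lamin B1 of the nuclear envelope (2.28 ± 0.20), NCAPG, a condensin subunit (2.15 ± 0.17), and TOP2A, the DNA topoisomerase that untangles sister chromatids (2.07 ± 0.23). The histone gene HIST1H2BK was not called.

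The medians of the DNA synthesis lists were nearer 0 than those of the mitotic lists, a difference that was not tested. Of origin licensing and replication fork genes 19 of 19 fell (median -1.26 log2). KIAA0101, now PCLAF, a partner of the sliding clamp PCNA, was 12.31, 12.45 and 12.39 with vehicle and 10.36, 10.30 and 10.64 with drug, a fall of 1.95 ± 0.13 log2 (adjusted p = 2.0e-09). GINS2, a subunit of the replicative helicase, fell 3.75-fold, PRIM1, the primase, 3.38-fold, and LIG1, the ligase that joins Okazaki fragments, 2.78-fold. In each of these 4 genes the vehicle values stayed above the drug values.

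All 5 named genes of deoxynucleotide synthesis fell (median -1.39 log2). RRM2, the regulated subunit of ribonucleotide reductase, was 10.12, 10.72 and 10.35 with vehicle and 8.40, 8.17 and 8.88 with drug. TYMS, thymidylate synthase, was 11.55, 11.64 and 11.46 against 9.60, 9.39 and 9.95. Both fell by 1.91 log2, with SE of 0.24 for RRM2 and 0.14 for TYMS. TK1, thymidine kinase, fell 2.62-fold. The smaller falls were those of RRM1, the other reductase subunit (2.12-fold), and DUT, which removes dUTP (2.11-fold). Of the S phase repair list 10 of 10 fell (median -1.31 log2), among them EXO1, an exonuclease (1.55 ± 0.21 log2), UBE2T, the ubiquitin-conjugating enzyme of the Fanconi pathway (1.42 ± 0.13), and BARD1, the partner of BRCA1 (1.34 ± 0.13).

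Promoters were found in RefSeq for 29 of the 34 named genes in the replication, deoxynucleotide and repair lists. Of these, 48.3% held an E2F match (the letters TTTCGCG, or alternatively TTTGGCG, or the variant spelled TTTCCCG, on either strand), against 7.28% of all promoters, and 13.8% held a CHR match, against 24.3%. For the mitotic lists (63 of 81 genes) and for all fallen (188 of 283) and risen genes (78 of 101), too few promoters were at hand for a share to be given. The same held for named genes that were not called (149 of 221), so the shares were not set against those of other named genes.

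The pathway that the drug acts on showed both directions. Of its 10 named genes 8 fell, 1 rose and 1, MYBL1, was not called. CCNA2, cyclin A2, the CDK2 partner of S phase, was 11.32, 11.47 and 11.37 with vehicle and 9.01, 9.09 and 9.47 with drug, a fall of 2.20 ± 0.15 log2 (adjusted p = 2.0e-09). FBXO5, an inhibitor of the anaphase-promoting complex, fell 2.94-fold, FOXM1, the transcription factor of mitotic genes, 2.83-fold, and CDC25A, the phosphatase that activates CDK2, 2.66-fold. CCNE2, cyclin E2, was 7.17, 8.11 and 7.56 with vehicle and 6.07, 6.01 and 6.55 with drug. It fell by 1.403 ± 0.28 log2 (adjusted p = 0.0017), but without both replicate 2 arrays its adjusted p was 0.069.

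CCND1, cyclin D1, the partner of CDK4 and CDK6, was the gene of this pathway that rose. It was 13.54, 13.45 and 13.60 with vehicle and 13.95, 13.93 and 13.92 with drug. The groups did not overlap, and the rise was 0.40 ± 0.13 log2 with an adjusted p of 0.049. Leaving out any 1 of the 6 arrays took it past the threshold, to an adjusted p of 0.079 to 0.16.

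Over the 8 lists of cell cycle genes together, 144 genes were named, of which 141 fell and 1 rose, with a median of -1.48 log2. Of all probes 5.78% fell. All but 9 of the 144 had been named through the authors' list for this comparison, so their falls are not independent evidence. Among the 9, MCM4, RPA3, CHAF1B, USP1, CENPN and CDCA7 fell, CCND1 rose, and MYBL1 and HIST1H2BK were not called. Without both replicate 2 arrays 135 fell, and over the other alternatives 138 to 141 fell. Only 1 of the 144 genes was undetected on all 3 drug arrays. The size of the falls still moved with the processing, and the median was -1.215 log2 without background correction. Over the alternatives the change of CDCA3 was -3.534 to -2.354 log2 and that of PSRC1 -3.268 to -2.038 log2.

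**Figure D2:**
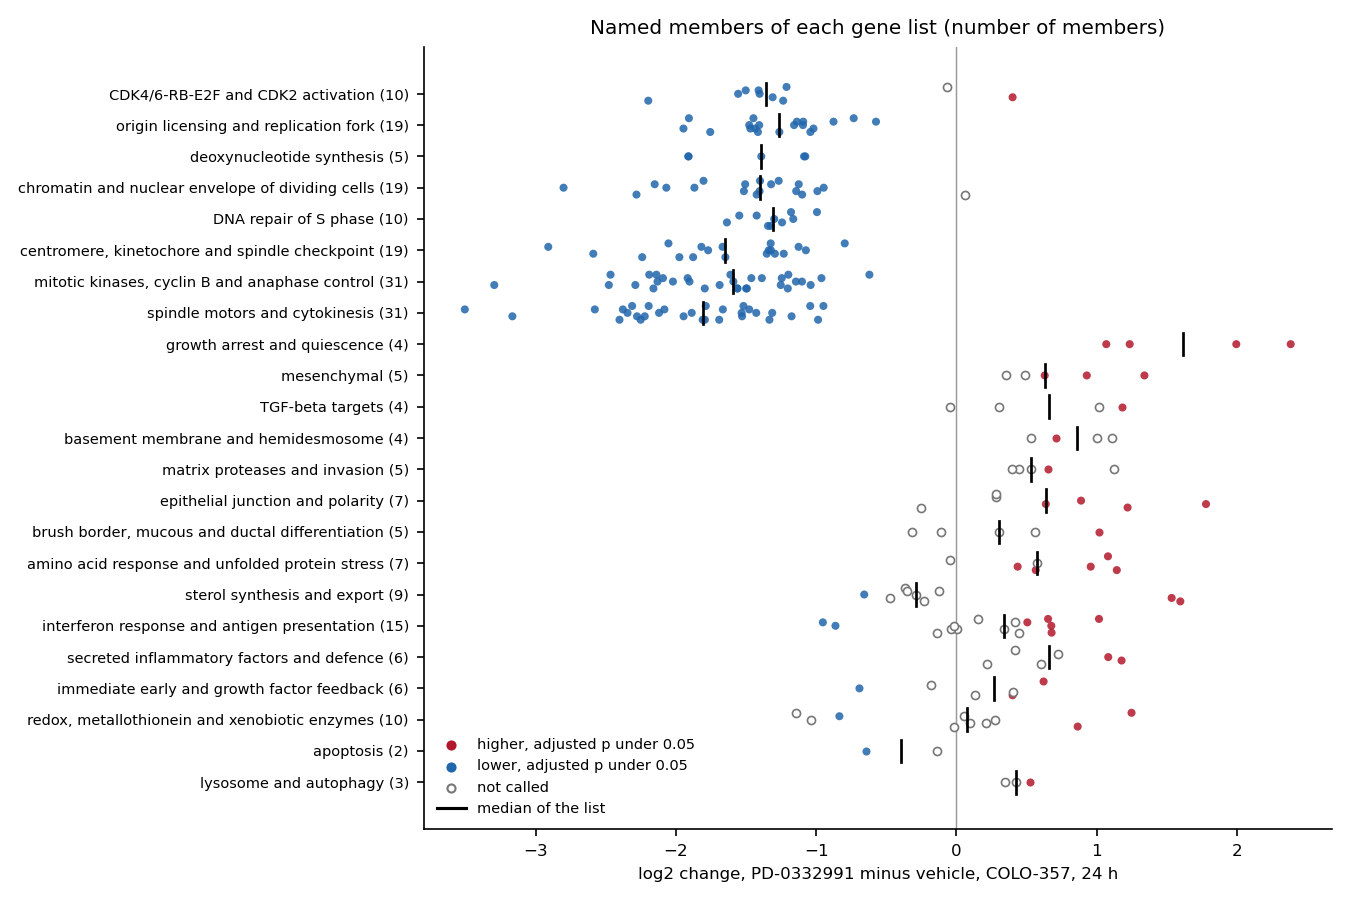
The log2 change between drug and vehicle in COLO-357 at 24 h (x axis) for each named member of 23 gene lists (rows, with the number of named members), filled red where it rose, filled blue where it fell, open where it was not called, with the list median as a black bar. The 8 cell cycle lists at the top hold filled points left of 0 only, except for CCND1 (0.40), with MYBL1 and HIST1H2BK open and close to 0, and the 4 growth arrest genes lie right of 0.

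All 4 named genes of growth arrest and quiescence rose (median 1.62 log2), against 5.52% of all probes. Only these 4 of the 45 genes in the list have a name in the files. For 3 of them, MXD4, YPEL5 and TXNIP, the name came through the authors' list for this comparison, so their rises are not independent evidence. MXD4 encodes a MAX partner that opposes MYC at shared sites. It was 7.06, 7.16 and 7.78 with vehicle and 9.68, 9.69 and 9.78 with drug. All drug arrays stood above all vehicle arrays, and the rise of 2.38 ± 0.20 log2 (5.22-fold, adjusted p = 2.4e-08) was the largest among named genes. Its promoter, shown beside those of the genes with the largest falls for contrast, lies at chr4:2262060-2262359 on the minus strand of GRCh38.p14 (RefSeq), with CCAAT matches on the other strand in capitals.
MXD4: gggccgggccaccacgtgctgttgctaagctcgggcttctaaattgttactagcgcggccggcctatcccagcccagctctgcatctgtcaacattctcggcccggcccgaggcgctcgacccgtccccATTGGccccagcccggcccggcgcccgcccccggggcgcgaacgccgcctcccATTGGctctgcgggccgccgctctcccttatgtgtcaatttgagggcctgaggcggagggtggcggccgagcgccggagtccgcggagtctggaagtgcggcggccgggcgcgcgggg
It held CCAAT at -121 and -68 and no CHR or E2F match in this window. YPEL5, a member of the yippee family, was 6.92, 6.59 and 6.87 with vehicle and 8.83, 8.59 and 8.94 with drug, a rise of 1.996 ± 0.18 log2. TXNIP, the thioredoxin-binding protein that limits glucose uptake, was 9.46, 8.82 and 9.21 against 10.71, 9.72 and 10.77. Its groups did not overlap, but replicate 2 was the lowest array of both, and it rose 2.35-fold. TSC22D3, the glucocorticoid-induced leucine zipper, rose 2.10-fold from 2 of 3 detected vehicle arrays.

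The cholesterol exporters ABCA1 and ABCG1 were 7.45, 7.77 and 7.53 against 9.21, 8.85 and 9.49, and 7.96, 8.10 and 8.05 against 9.54, 9.45 and 9.72. Neither overlapped between groups, and they rose 3.02-fold and 2.90-fold. CYP4V2, a fatty acid hydroxylase, rose by 1.76 ± 0.21 log2, and SLC16A4, of the monocarboxylate transporter family, by 1.60 ± 0.21. RDH5, a retinol dehydrogenase, rose by 1.51 ± 0.28, CIDEB, a lipid droplet protein, by 1.49 ± 0.22, and PLCH2, a phospholipase C, by 1.47 ± 0.29. In the sterol list, 7 of the 9 named genes act in synthesis, uptake or their control. By the brightest probe of each gene, 1 of the 7 fell, against 5.78% of all probes, and with array weights, without background correction or in the authors' scaled signals it was 3. ACAT2, which makes acetoacetyl-CoA, was the one, with 12.14, 12.31 and 12.30 against 11.28, 11.90 and 11.61, a fall of 0.66 ± 0.15 log2. INSIG1, which retains the sterol sensor SCAP, was -0.47 log2 (adjusted p = 0.23) by that probe, but its dimmer named probe fell by 1.401 ± 0.21 log2 (adjusted p = 7.1e-05). TMEM97, a sterol-responsive membrane protein, was -0.35 (adjusted p = 0.10).

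Other genes were also among the 15 largest rises. CEACAM1, a cell adhesion receptor, was 5.83, 5.10 and 5.82 with vehicle and 7.58, 6.86 and 7.64 with drug, with 2 of 3 vehicle arrays detected. Replicate 2 was lowest in both groups, the groups did not overlap, and CEACAM1 rose by 1.78 ± 0.24 log2. ARSD, a sulfatase, was 6.004, 5.94 and 5.98 against 7.63, 7.84 and 7.73 and rose 3.39-fold. GOLT1A, of Golgi transport, rose by 1.62 ± 0.15, ANKRD38, now KANK4, by 1.57 ± 0.17 and SYTL1, a Rab27 effector, by 1.52 ± 0.20. RPS29, a ribosomal protein gene with processed pseudogenes that its probe was not checked against, rose 3.35-fold.

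Mesenchymal, matrix and TGF-beta genes changed less uniformly at 24 h. Of 5 named mesenchymal genes 3 rose, against 5.52% of all probes and 20.1% of the genes named only through lists other than that for this comparison. ACTA2, smooth muscle actin, was 6.25, 6.64 and 5.87 against 7.59, 7.88 and 7.31 and rose 2.53-fold (adjusted p = 0.0019). NT5E, the ecto-nucleotidase CD73, rose by 0.93 ± 0.22 log2 (adjusted p = 0.0058, and 0.051 without vehicle replicate 3). CAV2, caveolin 2, rose by 0.63 ± 0.17 (adjusted p = 0.019). That call ended without vehicle replicate 1, vehicle replicate 2, drug replicate 1 or drug replicate 3, at up to 0.10. The repressor SNAI2 was 8.58, 9.33 and 8.77 against 9.26, 9.56 and 9.32, which overlap (0.49 log2, adjusted p = 0.073). It reached an adjusted p of 0.041 with replicate number as a block, and 0.0080 without vehicle replicate 2. CAV1 was 0.36 (adjusted p = 0.59).

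Of 4 named TGF-beta targets PMEPA1, a feedback inhibitor of the pathway, rose. It was 10.11, 9.95 and 10.22 against 11.36, 11.10 and 11.36, a rise of 1.18 ± 0.16 log2 (adjusted p = 2.9e-05). COL4A1 (0.31 log2, adjusted p = 0.30) and CYR61, now CCN1 (-0.04, adjusted p = 0.97), were not called.

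In the basement membrane list, COL17A1, the hemidesmosome collagen, rose by 0.71 ± 0.14 log2 (adjusted p = 0.0018), while its dimmer probe was 0.38 log2 higher and not called (adjusted p = 0.25). The laminin chains LAMA3 and LAMB3 were 1.003 and 0.53 log2 higher with drug without passing, at adjusted p = 0.16 and 0.31. LAMA3 was 8.97, 8.34 and 8.98 against 10.13, 8.99 and 10.18. Its groups did not overlap, and replicate 2 was the lowest array of both. With the block the adjusted p of LAMA3 was 0.00025.

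Of 5 named protease and invasion genes SERPINB5, maspin, was called at 0.65 ± 0.21 log2 (adjusted p = 0.047). It lost the call when any 1 of the 6 arrays was left out, at up to 0.14. CPA4, a carboxypeptidase, was 1.13 ± 0.44 log2 higher (adjusted p = 0.11, and 0.0047 with the block). PLAU, the urokinase (0.53, adjusted p = 0.13), MMP7, a matrix metalloproteinase (0.40, adjusted p = 0.41), and F3, tissue factor (0.45, adjusted p = 0.26), were not called, though PLAU had an adjusted p of 0.016 without vehicle replicate 2.

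Against 5.52% of all probes, 4 of 7 junction and polarity genes rose. They were CEACAM1, PCDH7, a protocadherin (1.22 ± 0.34 log2, adjusted p = 0.019), CLDN1, a tight junction claudin (0.89 ± 0.26, adjusted p = 0.028), and TJP3, the scaffold ZO-3 (0.64 ± 0.17, adjusted p = 0.013). PCDH7 lost its call without vehicle replicate 2, drug replicate 1 or drug replicate 3 (up to 0.14), CLDN1 without any 1 array other than drug replicate 1 (up to 0.12), and TJP3 without vehicle replicate 2 or drug replicate 3 (up to 0.075). Of 5 brush border and mucous genes MYO1A, the microvillus myosin, rose 2.03-fold (adjusted p = 0.018), which did not hold without vehicle replicate 2, drug replicate 1 or drug replicate 3, at up to 0.13. VIL1, the microvillus protein villin, was 0.56 log2 higher without passing (adjusted p = 0.31). AGR2, a disulfide isomerase of mucous cells, was 10.85, 8.82 and 10.65 with vehicle and 11.14, 9.03 and 11.07 with drug. Replicate 2 lay well below its group in both, and the difference of 0.30 was not called.

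Amino acid response genes rose in 5 of 7 cases, against 5.52% of all probes. Each of the 7 was named only through AsPC-1 lists. Without vehicle replicate 1, without vehicle replicate 3 or with 75th percentile scaling, 3 of 7 rose. ADM2, a peptide hormone induced by ATF4, was 7.10, 6.82 and 7.18 against 8.37, 8.05 and 8.11 and rose by 1.14 ± 0.19 log2 (adjusted p = 0.00021). PCK2, the mitochondrial PEP carboxykinase, was 7.87, 7.92 and 7.77 against 9.16, 8.72 and 8.92 and rose 2.12-fold. ASNS, asparagine synthetase, was 11.42, 11.69 and 11.44 against 12.52, 12.39 and 12.52 and rose 1.94-fold. No group overlapped in these 3 genes. The stress gene DDIT4 was 0.57 log2 higher (adjusted p = 0.064, and 0.045 with the block).

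The list of interferon and antigen presentation had 15 named genes, most of them named through the authors' AsPC-1 knockdown list. Of these 15 genes 5 rose and 2 fell, against 5.52% and 5.78% of all probes. These counts rested on single arrays. Without vehicle replicates 1, 2 or 3 in turn, 2, 3 or 2 rose and 1, 0 or 2 fell, and without drug replicates 1 or 3, 2 or 3 rose and 0 fell. With 75th percentile scaling 3 rose, and with no filter on dim probes 3 rose and 1 fell. IFIT3, an interferon-induced antiviral gene, was 6.22, 6.32 and 6.21 with vehicle and 7.29, 7.22 and 7.28 with drug, a rise of 1.02 ± 0.22 log2 (adjusted p = 0.0038). Its other named probe, only slightly dimmer over the 24 arrays, was 0.44 ± 0.19 log2 higher and was not called (adjusted p = 0.18). The fall of HERC5, the ISG15 ligase, was 0.86 ± 0.23 log2 (adjusted p = 0.015, and up to 0.085 without single arrays, of which vehicle replicate 2, drug replicate 1 and drug replicate 3 each ended the call). The helicase-like restriction factor SLFN11 fell by 0.95 ± 0.30 (adjusted p = 0.041), a call lost without vehicle replicate 1, vehicle replicate 2, drug replicate 1 or drug replicate 3, at up to 0.25. OASL, an oligoadenylate synthetase-like gene detected on 1 vehicle and 2 drug arrays, had overlapping groups at a difference of 0.68 (adjusted p = 0.037). It lost its call without vehicle replicate 2, vehicle replicate 3, drug replicate 1 or drug replicate 3, at up to 0.18.

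Of 6 secreted factors CFB, complement factor B, rose 2.26-fold (adjusted p = 0.0013), from 6.66, 6.85 and 6.92 to 8.09, 7.65 and 8.22. DEFB1, a defensin, rose 2.12-fold (adjusted p = 0.031), a call lost without vehicle replicate 1, vehicle replicate 2, drug replicate 1 or drug replicate 3 (up to 0.16). IL8, now CXCL8, was 0.60 log2 higher (adjusted p = 0.12, and 0.037 without vehicle replicate 2), and IL20RB, a cytokine receptor subunit, was 0.73 log2 higher (adjusted p = 0.30, and 0.0089 with the block). IL32 (0.42) and CCL5 (0.22) were not called.

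Of 6 immediate early genes JUN rose by 0.62 ± 0.18 log2 (adjusted p = 0.025, and up to 0.16 without vehicle replicate 1, vehicle replicate 2 or drug replicate 1, each of which ended the call). CCND1, also in this list, rose as described. An ETS factor, ETV4, fell by 0.69 ± 0.21 (adjusted p = 0.037), a call lost without any 1 of the 6 arrays, at up to 0.11. DUSP1, a MAP kinase phosphatase, was 0.40 log2 higher with an adjusted p of 0.28, or 0.044 with the block.

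Of 10 redox genes the aldehyde dehydrogenases ALDH3A1 and ALDH3B1 rose and the metallothionein MT1F, chosen for mention after its values were seen, fell by 0.83 log2 (adjusted p = 0.048) with overlapping groups. Without vehicle replicate 1, vehicle replicate 3, drug replicate 2 or drug replicate 3, 0 genes of the list fell. ALDH3A1 was 11.63, 11.36 and 11.57 against 12.95, 12.49 and 12.86, a rise of 1.25 ± 0.17 log2. ALDH3B1 rose 1.82-fold (adjusted p = 0.031), and lost its call without vehicle replicate 1, vehicle replicate 2, drug replicate 2 or drug replicate 3 (up to 0.12). The MT1F relatives MT1A and MT2A, metal-binding proteins of a family of near-identical genes, were in the authors' deposited list of falls. MT2A was 12.24, 10.82 and 12.16 with vehicle and 11.10, 9.47 and 11.21 with drug, with overlap, since vehicle replicate 2 lay below drug replicates 1 and 3. The differences of -1.04 for MT1A and -1.14 for MT2A had adjusted p of 0.081 and 0.14. With the block they were 0.00088 and 9.4e-05, and without vehicle replicate 2 they were 0.029 and 0.046, while without drug replicate 1 that of MT1A was 0.049. CASP9, the initiator caspase, fell by 0.65 ± 0.18 (adjusted p = 0.021), a call lost without vehicle replicate 3, drug replicate 1 or drug replicate 3, at up to 0.11. The dimmer CASP9 probe was -0.32 (adjusted p = 0.51). BIK, the other named apoptosis gene, was -0.14. MAP1LC3B, the autophagosome protein LC3B, rose by 0.52 ± 0.14 (adjusted p = 0.017), and lost its call without vehicle replicate 1, vehicle replicate 2 or drug replicate 3 (up to 0.12). CTSH, a lysosomal protease, and ULK1, an autophagy kinase, were 0.35 and 0.42 log2 higher and were not called.

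The response was set against that of AsPC-1 at 24 h by a test of the difference between the effects. In AsPC-1 2900 probes (11.7%) were called, 5.93% higher and 5.79% lower, on arrays with a median raw signal of 94.8 to 106.3. The difference was called for 175 probes (0.707%), 102 with the higher effect in COLO-357 (0.412%) and 73 with the lower one (0.295%). With replicate number as a block it was called for 324, and fitting only the 4 groups compared it was called for 41. The authors' scaled signals gave 95 with a higher and 294 with a lower effect in COLO-357. Leaving out COLO-357 vehicle replicates 1, 2 or 3 gave 88, 111 or 80 probes, and leaving out drug replicates 1 or 3 gave 91 or 70. Of the 175, 91 were called in COLO-357 only, 66 in AsPC-1 only and 18 in both.

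Of the 144 cell cycle genes, 138 fell in AsPC-1 as well (median -1.72 log2), against 5.79% of all probes. Most of the 144 were named through the authors' AsPC-1 list for 24 h, so these falls are not independent evidence. The difference between lines was called for 2 of the 144, against 0.707% of all probes. GTSE1 fell by 2.47 log2 in COLO-357 and by 1.09 in AsPC-1, a difference of -1.38 ± 0.25 (adjusted p = 0.0082, and 0.068 without both replicate 2 arrays). CDC25A fell by 1.41 in COLO-357 and by 2.74 in AsPC-1, a difference of 1.33 ± 0.30 (adjusted p = 0.037). That call was lost without any COLO-357 array other than drug replicate 2, at up to 0.098, and in the authors' scaled signals the difference turned to -0.13 (adjusted p = 0.84). Among the 101 risen genes 53 rose in AsPC-1 too, against 5.93% of all probes, and 11 had a called difference, against 0.707%. Some of the 101 were named through the authors' AsPC-1 lists, so the shared rise is not independent evidence. MXD4 rose by 1.14 log2 in AsPC-1, which was 1.24 less than in COLO-357 (adjusted p = 0.038).

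Of the 26 named genes with a called difference, 15 were higher in COLO-357 and 11 lower. With only the groups compared these were 3 and 2, and in the authors' scaled signals 15 and 55, so neither the number nor the balance of directions held. Leaving out vehicle replicates 1, 2 or 3 gave 7, 10 or 9 higher and 4, 7 or 5 lower, and leaving out drug replicates 1, 2 or 3 gave 8, 16 or 6 higher and 5, 7 or 3 lower. CEACAM1 rose in COLO-357 by 1.78 and was -0.16 in AsPC-1, a difference of 1.94 ± 0.34 (adjusted p = 0.0069, and 0.051 in the authors' scaled values), and for its other probe the difference of 1.20 was not called (adjusted p = 0.074). CYP3A5, a drug-metabolising cytochrome P450, was 6.20, 5.78 and 5.99 with vehicle and 7.65, 6.56 and 7.81 with drug in COLO-357. It rose by 1.35 there and was -0.57 in AsPC-1, a difference of 1.91 ± 0.44 (adjusted p = 0.044). That call was lost without any array other than drug replicate 2, at up to 0.13. IFIT3 rose by 1.02 in COLO-357 and fell by 0.84 in AsPC-1, a difference of 1.86 ± 0.32 (adjusted p = 0.0062, and 0.071 with only the groups compared). For its other probe the difference of 0.85 was not called (adjusted p = 0.16).

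By the brightest probe of each gene, 7 of the 9 named sterol genes fell in AsPC-1 and 1 in COLO-357. Of all probes 5.79% and 5.78% fell. The difference was called for 5 of the 9, against 0.707% of all probes. Of the genes that fell in AsPC-1, ACAT2, INSIG1, EBP, TMEM97 and DHCR7 were named through the authors' AsPC-1 list for 24 h. That choice favours a larger effect in AsPC-1, so these counts are not independent evidence of it. The dimmer INSIG1 probe fell in COLO-357 too, and its difference between lines was not called (adjusted p = 0.13). TMEM97 fell by 1.72 in AsPC-1 and was -0.35 in COLO-357, a difference of 1.37 ± 0.19 (adjusted p = 0.0014). ACAT2 fell by 1.84 and by 0.66, a difference of 1.19 (adjusted p = 0.0069). ABCG1 rose by 0.67 in AsPC-1 and by 1.53 in COLO-357, a difference of 0.87 (adjusted p = 0.039), and its other probe, with 1.20, was not called (adjusted p = 0.16). For ABCA1, which rose by 2.37 and 1.60, the difference of -0.77 was not called (adjusted p = 0.28). The glutathione peroxidase GPX2 fell by 1.20 in AsPC-1 and was 0.21 in COLO-357 (difference 1.404 ± 0.29, adjusted p = 0.026). That call was lost without any array other than drug replicate 2, at up to 0.068.

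Effects lower in COLO-357 included SEL1L3, which rose by 0.75 in COLO-357 and by 2.14 in AsPC-1 (difference -1.396 ± 0.22, adjusted p = 0.0036). The small nucleolar RNA host gene C6orf160, now SNHG5, was -0.13 in COLO-357 and rose by 1.24 in AsPC-1 (adjusted p of the difference 0.026, up to 0.074 without single arrays). It was the reverse with NEURL1B, of the neuralized ubiquitin ligase family, which fell by 1.28 in COLO-357 and was 0.07 in AsPC-1 (difference -1.35 ± 0.29, adjusted p = 0.031). GALNT9, a mucin-type glycosyltransferase, and LOC729779 differed by -1.24 (adjusted p = 0.016) and -1.16 (adjusted p = 0.025), both called in AsPC-1 and not in COLO-357. Leave-one-out ended the call of C6orf160 without vehicle replicate 1, vehicle replicate 3 or drug replicate 3, and that of NEURL1B without any array other than vehicle replicate 2 (up to 0.093). That of GALNT9 was lost without drug replicate 3 (0.056), and that of LOC729779 without vehicle replicate 2, drug replicate 2 or drug replicate 3 (up to 0.063). ASNS rose by 0.96 in COLO-357 and by 1.94 in AsPC-1, a difference of -0.98 (adjusted p = 0.029).

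**Figure D3:**
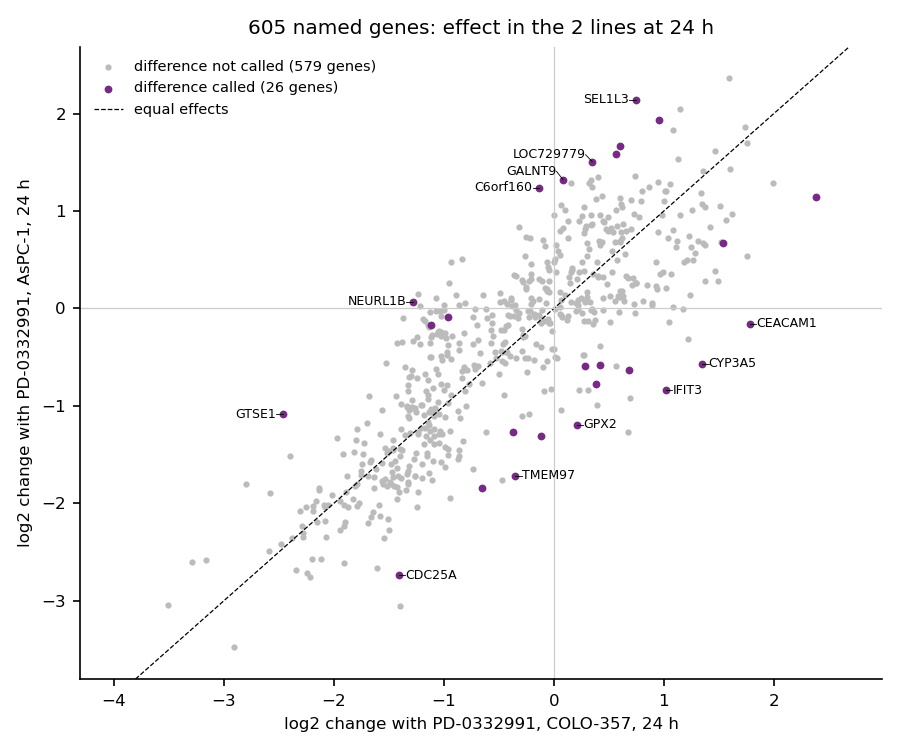
Log2 change with drug at 24 h in COLO-357 (x axis) and in AsPC-1 (y axis) for the 605 named genes, with the 26 genes whose difference between lines was called in purple and the line of equal effects dashed. Most genes that fell in both lines lie near the dashed line at the lower left, while CEACAM1, CYP3A5, IFIT3, GPX2 and TMEM97 lie to its right and SEL1L3, C6orf160 and NEURL1B to its left.

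The early response was also set against that of the same line at 72 h, on separate arrays. At 72 h 2791 probes (11.3%) were called, 5.74% higher and 5.54% lower. The median raw signal of the 72 h arrays was 85.5 to 92.4, below the 24 h arrays, and its part in the differences was not tested. The difference between the effects was called for 456 probes (1.84%), 146 higher at 24 h (0.59%) and 310 lower at 24 h (1.25%). From the authors' scaled signals 1288 probes were called, 1073 with the higher and 215 with the lower effect at 24 h, so the split turned with the scaling. Without vehicle replicate 1 the count was 271, without drug replicate 2 it was 296, and without both replicate 2 arrays it was 226. Of the 456 probes 231 were called at 24 h only, 123 at 72 h only and 90 at both.

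Of the 144 cell cycle genes 62 were lower and 2 higher at 72 h, with a median of -0.46 log2 against -1.48 at 24 h. The difference was called for 96, all lower at 24 h, against 1.25% of all probes. With the authors' scaling it was called for 77 of the 144, all lower at 24 h, and without both replicate 2 arrays for 55. All but 9 of the 144 were named through the authors' list for the 24 h comparison. That choice favours a larger effect at 24 h, so these counts and medians are not independent evidence of it. KIF20A fell by 3.50 at 24 h and by 1.05 at 72 h, a difference of -2.46 ± 0.30 (adjusted p = 0.00011). CDCA3 fell by 3.29 and by 0.88, PSRC1 by 3.17 and by 0.86, and CENPA by 2.91 and by 0.77, and each difference was called. BIRC5, survivin of the chromosomal passenger complex, was 11.01, 11.12 and 11.04 with vehicle and 9.06, 8.87 and 9.18 with drug at 24 h. It fell by 2.02 at 24 h and was 0.23 at 72 h (not called), a difference of -2.25 ± 0.23 (adjusted p = 2.0e-05). CKAP2L fell by 2.58 and was -0.19 (difference -2.39 ± 0.23). All 5 deoxynucleotide genes had a called difference, and 0 of them were called at 72 h. RRM2 was 0.08 and TYMS -0.16 there.

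The growth arrest genes gave 0 called differences between the times. MXD4 rose by 2.38 at 24 h and by 2.39 at 72 h, and YPEL5 rose by 1.996 and 1.23 (adjusted p of the difference 0.15). The cholesterol exporters ABCA1 and ABCG1 differed by -0.08 and 0.25 without passing. In all, 70 of the 101 risen genes also rose at 72 h, against 5.74% of all probes. For 11 of the 101 the difference was called, against 1.84% of all probes. Some of them were named through the authors' COLO-357 list for 72 h, so the count of 70 is not independent evidence.

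Several mesenchymal and matrix genes had larger effects at 72 h. At 72 h all 5 mesenchymal, 4 TGF-beta, 4 basement membrane and 5 protease genes named in the files rose, against 3, 1, 1 and 1 at 24 h, and the difference was called for 2, 2, 1 and 2 of them. Of all probes 5.74% rose at 72 h and 5.52% at 24 h, and 1.25% had a called difference with the lower effect at 24 h. All of the genes counted but SERPINB5 were named through an authors' list for 72 h, of this line or of AsPC-1. Only PMEPA1 was also named through that for COLO-357 at 24 h. Such naming favours a larger effect at 72 h, so these counts and differences are not independent evidence of it. CYR61 was -0.04 at 24 h and rose by 1.92 at 72 h (difference -1.96, adjusted p = 0.012). CAV1 was 0.36 and rose by 2.05 (difference -1.70, adjusted p = 0.043), and MMP7 was 0.40 and rose by 1.98 (difference -1.59, adjusted p = 0.019). PMEPA1 rose by 1.18 and then by 2.29 (difference -1.11, adjusted p = 0.012). SNAI2 (difference -0.49, adjusted p = 0.41) and ACTA2 (0.46, adjusted p = 0.73) had no called difference.

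Of the 157 named genes with a called difference between times 24 had the higher effect at 24 h and 133 the lower, against 80 and 103 in the authors' scaled signals. Many of the 157 were named through the authors' list for 24 h, which favours large effects at that time. Among the 349 genes named only through other lists, 21 had the higher effect at 24 h and 14 the lower, against 0.59% and 1.25% of all probes. In the authors' scaled signals these were 68 and 10 of the 349. Some of the 349, such as MUC5AC, TJP3 and CASP9, were named through the authors' COLO-357 list for 72 h, which favours large effects at that time. A fall at 72 h only counts as a higher effect at 24 h, so these counts are not independent evidence either. MUC5AC, a gel-forming mucin, was -0.11 at 24 h and fell by 1.88 at 72 h (difference 1.77 ± 0.46, adjusted p = 0.048). That call was lost without any COLO-357 24 h array other than vehicle replicate 2, at up to 0.15. CAPN12, a calpain, was 0.46 and fell by 1.28 (difference 1.74 ± 0.31, adjusted p = 0.0034), and TJP3 rose by 0.64 and fell by 1.08 (difference 1.72 ± 0.24, adjusted p = 0.00029). CASP9 fell by 0.65 and by 2.26 (difference 1.61 ± 0.26, adjusted p = 0.0013; 1.14 for its dimmer probe, adjusted p = 0.097). ACOX2, a peroxisomal oxidase, was -0.18 and fell by 1.74 (difference 1.56 ± 0.28, adjusted p = 0.0037). ALDOC, aldolase C, rose by 0.59 at 24 h (adjusted p = 0.041, a call lost without any 1 of the 6 arrays, at up to 0.17) and fell by 0.79 at 72 h (difference 1.39 ± 0.26, adjusted p = 0.0060).

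**Figure D4:**
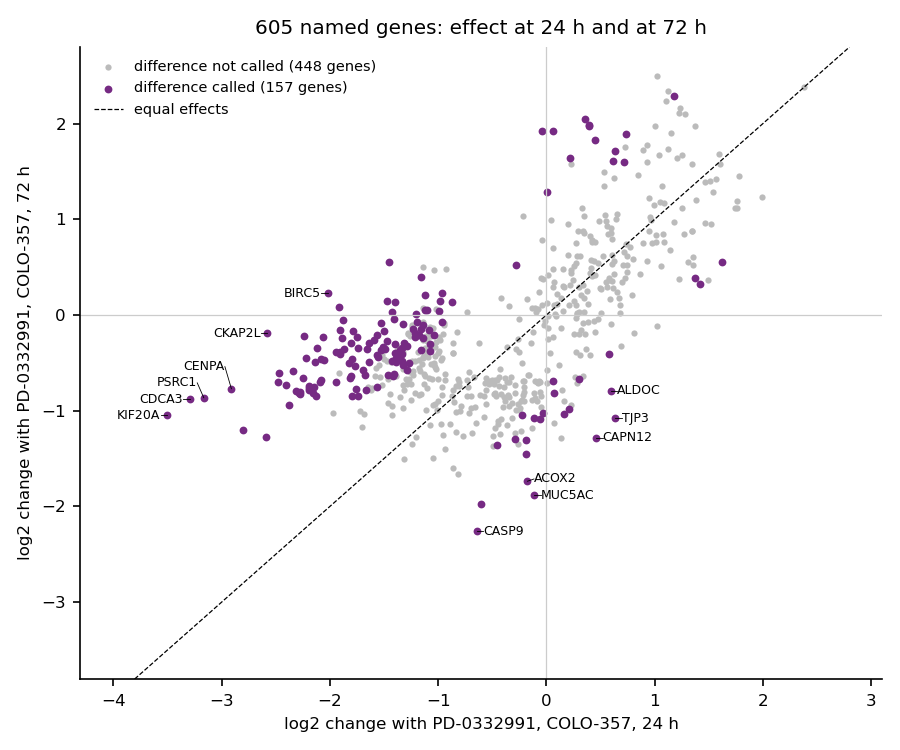
Log2 change with drug in COLO-357 at 24 h (x axis) and at 72 h (y axis) for the 605 named genes, with the 157 genes whose difference between times was called in purple and the line of equal effects dashed. KIF20A, CDCA3, PSRC1, CENPA, CKAP2L and BIRC5 lie far to the left of the dashed line, with falls of up to 3.50 log2 at 24 h and smaller values at 72 h, and CASP9, MUC5AC, ACOX2, CAPN12, TJP3 and ALDOC lie to its right.

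The authors also deposited a list for a cyclin knockdown in COLO-357 against its control, whose arrays were not analysed here. Of its 22 probes, 7 (31.8%) rose with PD-0332991 at 24 h and 0 fell, with a median of 0.30 log2. Of all probes 5.52% rose. Of the 349 genes named only through lists other than that for PD-0332991 in COLO-357 at 24 h, 20.1% rose. Of the 22 ratios, 20 were above 1 in the authors' deposited table. LOC730323 was 11.83, 11.29 and 12.12 with vehicle and 13.10, 12.36 and 13.04 with drug, a rise of 1.09 ± 0.18 log2, and its knockdown ratio in the authors' deposited table was 1.5. PCDH7 had a ratio of 1.51 and the listed CEACAM1 probe 1.5 in the authors' deposited table. UPK3B, an uroplakin, with a ratio of 1.60 in that authors' deposited table, rose 1.67-fold with drug (adjusted p = 0.017), a call lost without vehicle replicate 2, drug replicate 1 or drug replicate 3, at up to 0.14. CCND1 itself had a ratio of 0.37 in the authors' deposited table and rose with drug.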

How the data were processed

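Transcripts were measured on Illumina bead arrays with biotin-labelled RNA. Per the file headers, the deposited table holds 1 linear intensity and 1 detection p-value per probe and array, not normalised. A second intensity table of the authors equals the deposited signal times 1 factor per array. The authors' deposited lists give a ratio of treated over control. The software, annotation and test behind these files, and any background step in the signals, are not given in the sources used here.

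Signals were background-corrected (normexp with detection p-values), quantile-normalised and set to log2 with an offset of 16 (neqc, limma 3.58.1, R 4.3.3), starting from the deposited intensity. Probes with detection p under 0.05 on at least 3 of 24 arrays were kept, 24750 of 47223. The model had 1 mean for each of the 8 groups and used all 24 arrays (lmFit, eBayes; 16 residual and 5.84 prior degrees of freedom). Contrasts were drug minus vehicle and the differences of that effect between lines and between times. Two-sided p-values were adjusted by Benjamini-Hochberg over all 24750 probes, and called means an adjusted p under 0.05. Precision is limited by the few arrays per group. Figures used matplotlib 3.10.9 in Python 3.11.15.

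Of 605 symbols from the authors' lists, 462 equal a current RefSeq symbol, 74 an older one and 69 neither, and 2 listed probes had no symbol. Genes in the text are the 15 largest rises and falls without overlap, up to 4 members per list with the largest change (all members of lists with up to 6), a short list of cell cycle, sterol and mesenchymal genes, the 6 largest differences each way, and the 4 largest of the COLO-357 knockdown list. A few genes that these rules choose are not reported here. The comparison, the lists and these rules were chosen with earlier results of these data known. Same-numbered replicates deviated together from their group means (r = 0.22, 0.47 and 0.12 over probes), and differently numbered ones had r of -0.33 to 0.18, so the same-numbered value stood well apart from the others for replicate 2 only. The labels do not say what a number stands for. Since each r was above 0.1, the numbers were taken as pairing the arrays, and a fit with replicate number as a block was an alternative. Alternatives also covered the groups fitted, scaling, background, the probe filter, array weights, the offset, a stricter threshold and leaving out arrays.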

Additional observations from a re-analysis of the deposited data

Results flagged for a closer look

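The drug effect in COLO-357 at 24 h differed between lines or times, by the test of the difference itself, for the 24 genes given here. Against AsPC-1 at 24 h the difference was higher for CEACAM1 (1.94), CYP3A5 (1.91), IFIT3 (1.86), GPX2 (1.404), TMEM97 (1.37) and CDC25A (1.33), in log2. It was lower for SEL1L3 (-1.396), GTSE1 (-1.38), C6orf160 (-1.37), NEURL1B (-1.35), GALNT9 (-1.24) and LOC729779 (-1.16). Of these 12, SEL1L3 and TMEM97 stayed called in 16 of 16 alternatives, CEACAM1, IFIT3 and GTSE1 in 15, C6orf160 and LOC729779 in 11, NEURL1B in 9, CYP3A5 and GPX2 in 8, and CDC25A in 5. GALNT9 stayed called in 12 of the 15 alternatives that kept its probe. Fitting only the 4 groups compared, 7 of the 12 were not called, with adjusted p of 0.14 for C6orf160, 0.11 for GALNT9, 0.10 for NEURL1B, 0.071 for IFIT3 and 0.061 each for LOC729779, CYP3A5 and GPX2.

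Against 72 h in the same line the effect was lower at 24 h for KIF20A (-2.46), CDCA3 (-2.42), CKAP2L (-2.39), PSRC1 (-2.30), BIRC5 (-2.25) and CENPA (-2.14). It was higher at 24 h for MUC5AC (1.77), CAPN12 (1.74), TJP3 (1.72), CASP9 (1.61), ACOX2 (1.56) and ALDOC (1.39). All of these but MUC5AC stayed called in 16 of 16 alternatives, and MUC5AC in 8. For MUC5AC the 24 h vehicle arrays were 6.73, 7.74 and 7.11 log2 and the drug arrays 6.86, 7.47 and 6.92, with replicate 2 highest in both groups.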

How the results depend on the processing

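The count of called probes was 2796. It was 4413 with array weights, 1523 at an adjusted p under 0.01, 1840 to 2197 leaving out 1 array at a time, and 1605 without both replicate 2 arrays, an alternative chosen after the second principal component had been seen. The 2-fold count of 554 was 263 in the authors' scaled values, 206 without background correction (34 higher, 172 lower), 316 at an offset of 50, and 519 to 610 leaving out 1 array. The difference between lines, 175 probes, was 41 with only the groups compared, 324 with the replicate block, 104 with 75th percentile scaling (51 higher, 53 lower), 389 in the authors' scaled values, 304 at an offset of 50, 43 at an adjusted p under 0.01, 70 to 144 leaving out 1 array and 68 without both replicate 2 arrays. The difference between times, 456 probes, was 1288 in the authors' scaled values, 1239 with array weights, 144 at an adjusted p under 0.01, 271 to 406 leaving out 1 array and 226 without both replicate 2 arrays. The causes were not tested, apart from leaving fewer arrays or setting a stricter threshold. Replicate numbers were taken as pairing the arrays, although same-numbered arrays stood well apart from the others for replicate 2 only. With that choice, which the labels do not state, the replicate block gave 3114 called probes, 571 at 2-fold and 682 for the difference between times. Among the genes named by rule the block took 0 calls away and added 10, given beside each gene that the text describes. For the drug effect at 24 h itself, 0 called genes among those named by rule changed sign under these alternatives. Among the 24 differences between lines or times given above, that of CDC25A turned to -0.13 in the authors' scaled values. Over all probes the median change moved from 0.00846 to at most 0.0181 and at least -0.0154 log2.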

Other observations

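Chosen after their values were seen, 3 named genes were detected on all 3 vehicle arrays and on 0 drug arrays at 24 h, so that their falls are bounds. GAS2L3, which links actin and microtubules in dividing cells, was at least 2.82-fold lower with drug (measured means 6.88 and 5.05 log2, adjusted p = 8.3e-08). A probe named EPR1 was at least 1.90-fold lower (6.30 and 4.85), and NR2F1, an orphan nuclear receptor, at least 1.36-fold lower (5.83 and 5.11).

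Among probes without a name in the files, the largest falls were those of ILMN_1734827, by 2.91 ± 0.30 log2, and ILMN_1803124, by 2.55 ± 0.21. The largest rises were those of ILMN_1705107, by 1.82 ± 0.28, and ILMN_1684571, by 1.68 ± 0.13. Of the 554 probes called at 2-fold, 242 had no name, so the lists cover part of the response.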
